A study of Mus musculus with 47 samples.

Results

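The Toll-like receptor genes Tlr1, Tlr2, Tlr3, Tlr4, Tlr5, Tlr6, Tlr7, Tlr8, Tlr9 and Tlr13 were followed through liver, lung and brain of mouse embryos with point mutations in the histone chaperone gene Daxx. They were chosen by symbol, all 10 were among the 20456 genes in the count table, and all 10 passed the filter on low counts. RNA was sequenced from 47 tissue samples of 17 embryos in 8 litters, all at E18.5 of gestation. The embryos were homozygous for Daxx S226A, a substitution made to abolish binding of the histone variant H3.3, or for Daxx Y130A, made to abolish binding of Atrx, or were wild-type (WT) littermates of either. Both alleles were made by CRISPR in C57BL/6N zygotes, founders were backcrossed to C57BL/6J, and heterozygous mice were intercrossed, so each mutant has its own WT set. Each of the 12 groups of 1 tissue and 1 genotype had 4 samples, apart from the WT lungs of the Y130A litters with 3. The alleles are carried in the germline, so every tissue of a mutant embryo had the substitution. The comparisons ask whether losing either contact of Daxx was accompanied by a change in the RNA of these receptors.

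Toll-like receptors are membrane proteins that recognise molecules of microbes and of damaged cells. Each joins a ligand-binding ectodomain of leucine-rich repeats to a cytoplasmic TIR domain, which recruits the adaptors Myd88 or Ticam1 and through them activates NF-kB and interferon regulatory factors. Tlr1, Tlr2, Tlr4, Tlr5 and Tlr6 act mainly at the cell surface on lipids and proteins of microbes. Tlr3, Tlr7, Tlr8, Tlr9 and Tlr13 act in endosomes on nucleic acids, and reach them with the help of Unc93b1. Macrophages, monocytes, neutrophils, dendritic cells and B cells carry different sets of the family, and some epithelia also express members. At this age the fetal liver is a blood-forming organ and contains many such cells.

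In the mouse genome (GRCm38), Tlr1 (chromosome 5, 64924679 to 64933563) and Tlr6 (64952031 to 64960097) lie beside each other on the minus strand. Tlr8 (167242696 to 167264329) and Tlr7 (167304929 to 167330558) are neighbours on the minus strand of chromosome X, which also carries Tlr13 on the plus strand (106143204 to 106160493). The paper states that mutants and WT were matched by sex and litter. Sex was not in the labels used here and was not fitted. The other members lie apart from each other on chromosomes 1 (Tlr5), 3 (Tlr2), 4 (Tlr4), 8 (Tlr3) and 9 (Tlr9). Tlr1 and Tlr6 have similar coding sequences, so reads from shared stretches may be lost to either gene and the counts of both are uncertain to that extent. Exons of Tlr3 overlap an antisense gene, Gm45542, which was not in the count table, and whether counting used strand was not given in the sources used here.

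The sequence before the start of Tlr13 is shown because Tlr13 was the 1 of these 10 receptors whose RNA changed in mutant liver. RefSeq promoters (GRCm38.p6) were matched for 8 of the 10 receptors, Tlr4 and Tlr7 being those without an entry. The stretch shown ends at the last base before the annotated (GENCODE) start of the gene, chrX:106143025-106143203, on the plus strand, and capitals mark the letters GAGGAA, the core of the PU-box bound by the myeloid factor PU.1.
Tlr13: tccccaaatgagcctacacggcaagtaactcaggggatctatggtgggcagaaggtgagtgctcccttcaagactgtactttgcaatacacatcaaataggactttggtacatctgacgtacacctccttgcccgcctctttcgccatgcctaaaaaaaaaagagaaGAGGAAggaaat
The match began 12 bases before that start, and further before the RefSeq start, which lies downstream of the GENCODE start. Over the full promoters, from 250 bases before to 50 after each RefSeq start and on either strand, GAGGAA occurred in 4 of the 10 promoter entries of these receptors (Tlr1 and Tlr6 have 2 each), those of Tlr1, Tlr8, Tlr9 and Tlr13, against 28.3% of all 32851 promoters. The C/EBP core TTGCNNAA occurred in entries of Tlr3, Tlr6, Tlr8 and Tlr13, again 4 of 10, against 10.8% of all promoters. The core of the interferon-stimulated response element occurred in 1 of the 10, of Tlr6, against 3.4%. The C/EBP match of Tlr13 lies outside the stretch shown, and a match describes letters, not a site in use.

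In WT embryos the receptors were measured as RPKM (reads per kilobase of exon, scaled to the size of the library), the scale on which different genes can be compared, over 8 livers, 7 lungs and 8 brains. Tlr2, which pairs with Tlr1 or Tlr6 to bind bacterial lipoproteins, had the highest median in each tissue, 3.07 RPKM in liver (range 2.11 to 3.92), 3.74 in lung (2.26 to 5.72) and 0.424 in brain (0.221 to 0.586). Tlr13, the mouse receptor for bacterial ribosomal RNA, stood second in liver with 2.99 RPKM (2.66 to 3.37), and Tlr4, the receptor for lipopolysaccharide, followed with 2.84 (1.23 to 3.28). Tlr5, the receptor for flagellin, had 2.31 RPKM in liver (1.89 to 2.80), and Tlr7, a receptor for single-stranded RNA, had 1.99 (1.03 to 2.75). Tlr8, the relative and neighbour of Tlr7, had 1.87 (1.09 to 2.14). The remaining 4 receptors were between 0.684 RPKM (Tlr6) and 1.20 RPKM (Tlr1) in liver by their medians. In lung the order was Tlr2, Tlr4, Tlr3, Tlr5, Tlr13, Tlr8, Tlr7, Tlr6, Tlr1 and Tlr9, from 3.74 to 0.148 RPKM. This order pools litter sets that differed in Tlr5 (mean 2.44 RPKM in the WT lungs of the S226A litters and 0.818 in those of the Y130A litters) and in Tlr9 (0.392 and 0.111), so the places of both depend on the set. In brain it was Tlr2, Tlr4, Tlr3, Tlr7, Tlr13, Tlr6, Tlr1, Tlr8, Tlr5 and Tlr9, from 0.424 to 0.0438 RPKM. The ranges of neighbours in these orders overlapped in each of the 3 tissues.

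**Figure D1:**
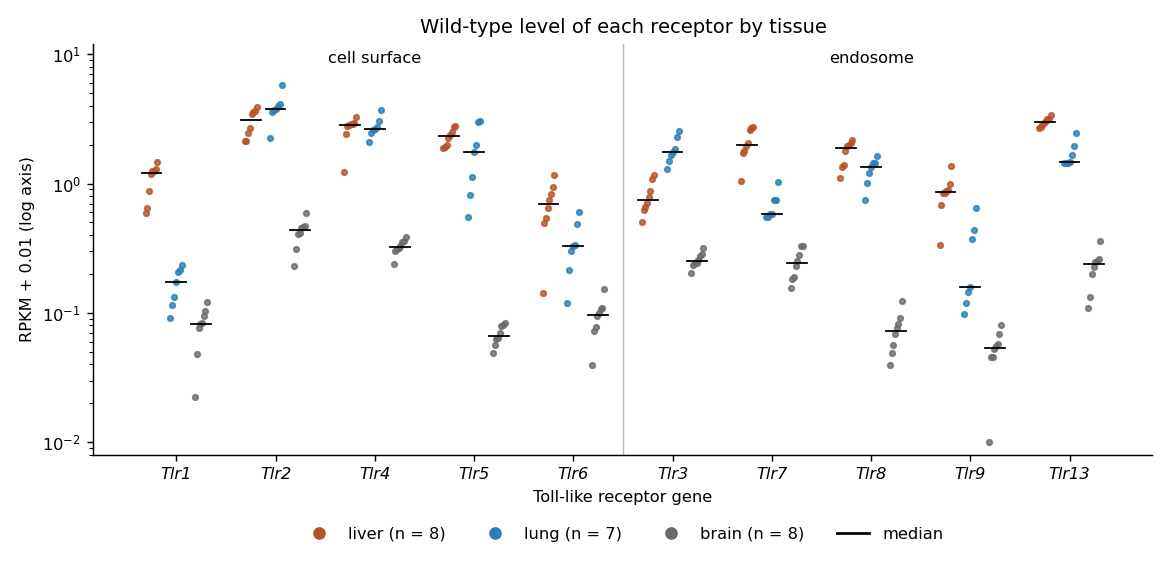
RPKM of each receptor in WT liver, lung and brain (log axis, 0.01 added), with 1 point per library and a bar at the median, cell-surface receptors to the left and endosomal receptors to the right. Brain medians are the lowest for all 10 receptors, and the lung points of Tlr3 (median 1.75 RPKM) lie above its liver points (median 0.738 RPKM).

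All 10 receptors were lower in WT brain than in WT liver and than in WT lung, by edgeR's quasi-likelihood test with a Benjamini-Hochberg adjusted p below 0.05 over 16892 genes, the criterion for a call throughout. Of all genes tested, 87.3% were called between brain and liver (41.8% lower in brain) and 84% between brain and lung (41.3% lower in brain), so that a call by itself said little about a receptor, and the sizes matter more. Against liver, the log2 differences in brain ran from -1.67 ± 0.17 (SE) for Tlr3, the receptor for double-stranded RNA, to -5.29 ± 0.20 for Tlr5. Against lung they ran from -1.17 ± 0.39 for Tlr1 to -4.59 ± 0.20 for Tlr5. In brain the receptors were counted by few reads, Tlr9 by 0 to 12 per WT library and Tlr8 by 4 to 15.

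Between WT lung and WT liver, 8 of the 10 receptors were called, against 80.1% of all genes. Tlr3 was the 1 receptor that was higher in lung, by 1.16 ± 0.16 on the log2 scale. Lower in lung were Tlr1 (-2.75 ± 0.38), Tlr9, the receptor for unmethylated CpG DNA (-1.99 ± 0.44), Tlr7 (-1.65 ± 0.22), Tlr6 (-1.04 ± 0.33), Tlr13 (-0.86 ± 0.15), Tlr5 (-0.70 ± 0.16) and Tlr8 (-0.50 ± 0.22). Tlr2 (0.33 ± 0.19) and Tlr4 (0.04 ± 0.13) were not called. In the S226A litters alone, 5 receptors were called (Tlr1, Tlr3, Tlr7, Tlr9 and Tlr13), where 73.7% of all genes were, and the log2 difference of Tlr5 was 0.003 ± 0.22 there. In the Y130A litters alone, 8 were called, where 73.3% of all genes were, and that of Tlr5 was -1.41 ± 0.24. With the embryo as a replicate block, 6 were called, without Tlr6 and Tlr8, where 77.6% of all genes were. Tlr8 was close to the threshold and lost its call in 11 of 22 alternatives, among them the fit without 2 livers that carried squamous epithelial RNA (adjusted p = 0.0596, 7 receptors called).

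The WT lungs of the S226A and Y130A litters differed in Tlr5 and Tlr9. Normalized counts, which are counts scaled to a common library size, of Tlr5 were 281, 246, 423 and 431 in the WT lungs of the S226A litters and 114, 76.4 and 157 in those of the Y130A litters. Every value of the former set was above every value of the latter, by 1.57 ± 0.24 (log2, adjusted p = 1.85e-05). Tlr9 was at 15.2, 65.1, 37 and 43.7 against 13.9, 9.03 and 11.3, a log2 difference of 1.81 ± 0.65 (adjusted p = 0.0439). These were 2 of 10 receptors called, where 20.1% of all genes were called between the WT lungs, and the call of Tlr9 was lost in 9 of 12 alternatives. Tlr3 did not overlap between these sets either (270 to 391 against 196 to 256), nor, by a narrow margin, did Tlr7 (69.3 to 122 against 65.4 to 69.2). Both were higher in the S226A litters and not called in this fit, and the share of all genes without overlap was not computed. In WT liver and WT brain no receptor was called between the litter sets (0 of 10 in each also with DESeq2, and 0 at an unadjusted p below 0.05), where 13.1% and 5.98% of all genes were called and 28% and 18.4% had an unadjusted p below 0.05. The fold changes of a mutant are against its own littermates.

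The S226A litters gave 15722147 to 26190403 counted reads per library, the Y130A litters 36351738 to 54885020. Daxx RNA itself was not called in any of the 6 mutant comparisons, its log2 fold changes being between -0.12 and 0.04, and a change of 1 codon would not be seen in a count. For Daxx protein the paper reports more in Y130A and less in S226A than in WT. It measured fetal lung and embryonic fibroblasts, with the clearest difference in the fibroblasts. Marker genes of liver, lung and brain were found in the tissues so labelled, but 2 livers, a WT of the S226A litters (replicate 2) and a Y130A (replicate 1), carried keratin and other squamous epithelial RNA at 875 and 532 CPM, against at most 7.17 in the other livers. Receptor counts in liver are therefore also given without these 2 libraries where that changed a call.

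In S226A liver, Tlr13 rose and the other 9 receptors did not pass the test. The 4 S226A livers had Tlr13 at 510, 805, 578 and 582 normalized counts, from 262 to 590 reads. Their 4 WT littermates had 374, 402, 348 and 339, from 164 to 207 reads. The lowest mutant lay above the highest WT, and in each of the 4 litters the mutant embryo was the higher. The log2 fold change was 0.76 ± 0.20 (SE, n = 4 and 4, adjusted p = 0.00677, edgeR). This was 1 of 10 receptors called and 1 of 10 with groups that did not overlap, where 11.7% of all genes were called (6.14% higher) and 11.9% did not overlap. The call held under DESeq2, without either squamous library, with litter as block and without each library in turn, where leaving out S226A replicate 2, the highest, gave 0.61 (adjusted p = 0.0482). It missed the study's stringent criteria, which ask for a log2 change beyond 1 and which 2.1% of all genes met. At an unadjusted p below 0.05 Tlr13 was again the 1 receptor, where 24.7% of all genes were.

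No cell-surface receptor passed the test in S226A liver. Tlr2 was at 391, 411, 375 and 220 normalized counts in the mutants and at 323, 188, 240 and 350 in WT (log2 fold change 0.34 ± 0.26, 95% interval -0.17 to 0.86). Tlr4 was at 424, 481, 357 and 480 against 481, 472, 202 and 453 (0.11 ± 0.18), with WT replicate 3 far below the others, and the log2 fold change was -0.11 without that library. Tlr5 was at 399, 257, 293 and 402 against 278, 396, 319 and 384 (-0.03 ± 0.22). For Tlr4 and Tlr5 the 95% interval of the log2 fold change ran from -0.24 to 0.47 and from -0.46 to 0.40. Tlr1 (0.31 ± 0.46) and Tlr6 (0.49 ± 0.44) had few reads, 27 to 154 and 8 to 91 per library, and their intervals, from -0.59 to 1.21 and from -0.38 to 1.35, include changes larger than that of Tlr13. Groups overlapped for all 5.

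Among the endosomal receptors other than Tlr13, no log2 fold change in S226A liver passed the test either. Tlr7 had 204, 202, 104 and 104 normalized counts in the mutants and 216, 124, 310 and 234 in WT, a log2 fold change of -0.52 ± 0.29 (95% interval -1.09 to 0.05, adjusted p = 0.277). Tlr9 had 101, 96.9, 21.9 and 86.3 against 88.9, 85.5, 140 and 90.6 (-0.40 ± 0.56), with the low mutant counted by 12 reads. Tlr8 (-0.16 ± 0.30) and Tlr3 (-0.07 ± 0.23) were nearer to 0. Over the 10 receptors the median log2 fold change was 0.04, against -0.01 over all genes. Added up, the 10 receptors amounted to 2169 to 2900 normalized counts in the mutants and 2020 to 2382 in WT.

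**Figure D2:**
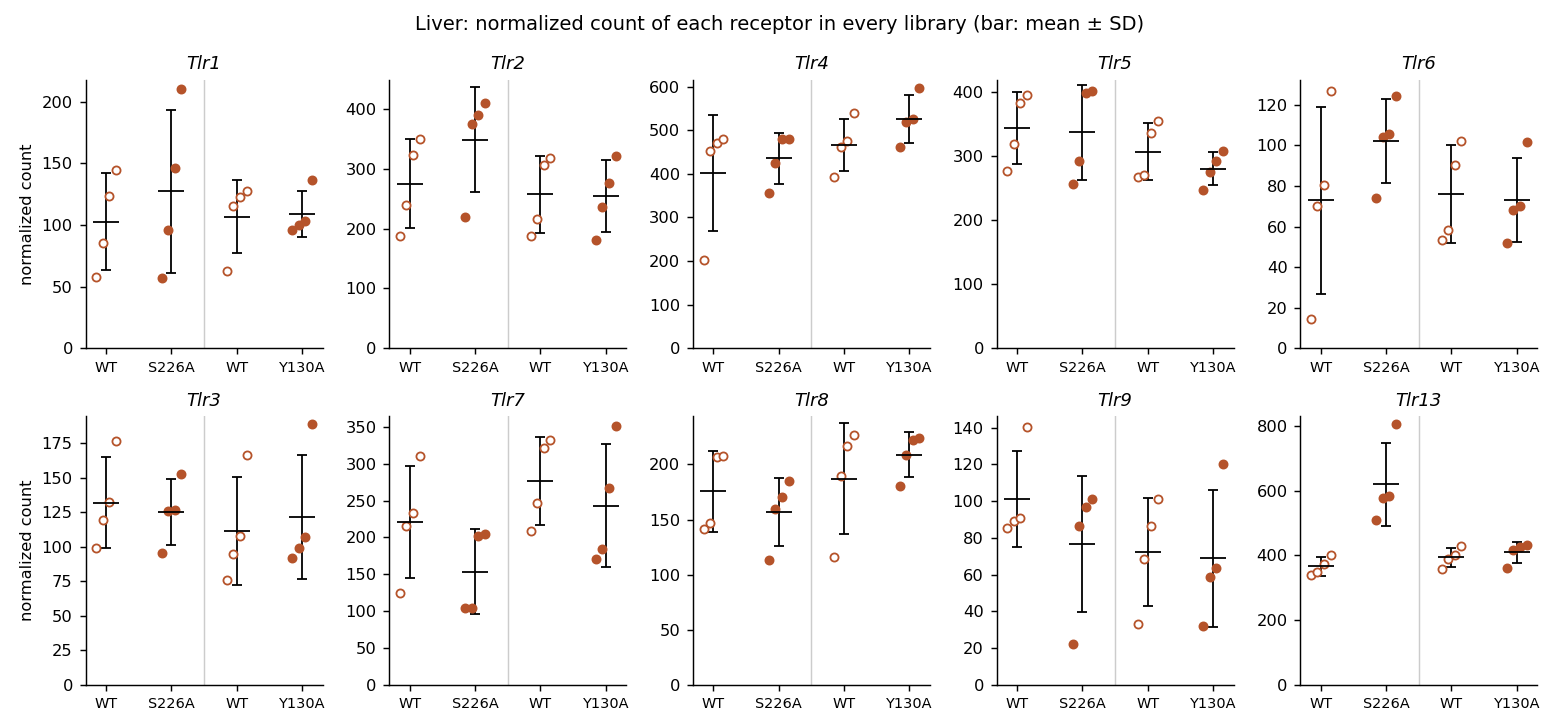
Normalized count of each receptor in every liver library, with mean ± SD as bars, open points for WT and filled points for mutants, S226A litters to the left of the line and Y130A litters to the right. Only for Tlr13 do the 4 S226A livers (510 to 805) lie wholly above their WT littermates (339 to 402), while the Y130A livers (361 to 432) overlap theirs (359 to 428).

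Markers of some of the immune cells known to carry these receptors differed in S226A liver as well. Of 10 markers of Kupffer cells and macrophages, 9 fell in S226A liver and the tenth did not pass the test, and their summed level was 6164 to 10119 normalized counts in the mutants against 26080 to 31949 in WT. Clec4f, a Kupffer cell lectin, fell by 8.42 on the log2 scale, and Vsig4 had no read in any of the 4 mutants. All 10 markers of neutrophils and their precursors rose, by 1.25 to 1.65, with summed levels of 266244 to 286560 against 91571 to 109337. With DESeq2 8 of these 10 were called, Elane (adjusted p = 0.43) and Mpo (0.101) missing the threshold. Of 4 monocyte markers Ly6c2 and F13a1 rose. Of 4 plasmacytoid dendritic cell markers Bst2 rose, a call lost without WT replicate 2 or S226A replicate 2 (adjusted p up to 0.0563), and Siglech and Tcf4 fell. Of 7 microglial markers, a list that also holds Siglech, 3 fell. Of 4 endothelial markers Cdh5 (-0.46 ± 0.12) and Pecam1 (-0.34 ± 0.11) fell, and Pecam1 lost its call in 6 of 14 alternatives (adjusted p up to 0.147), 5 of them without 1 library (WT replicate 1, 3 or 4, or S226A replicate 2 or 3). Tlr13 thus rose in livers where neutrophil markers rose and most macrophage markers fell. Their part in the values of the receptors was not tested, and in bulk tissue fewer cells of a type and less RNA per cell cannot be told apart.

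**Figure D3:**
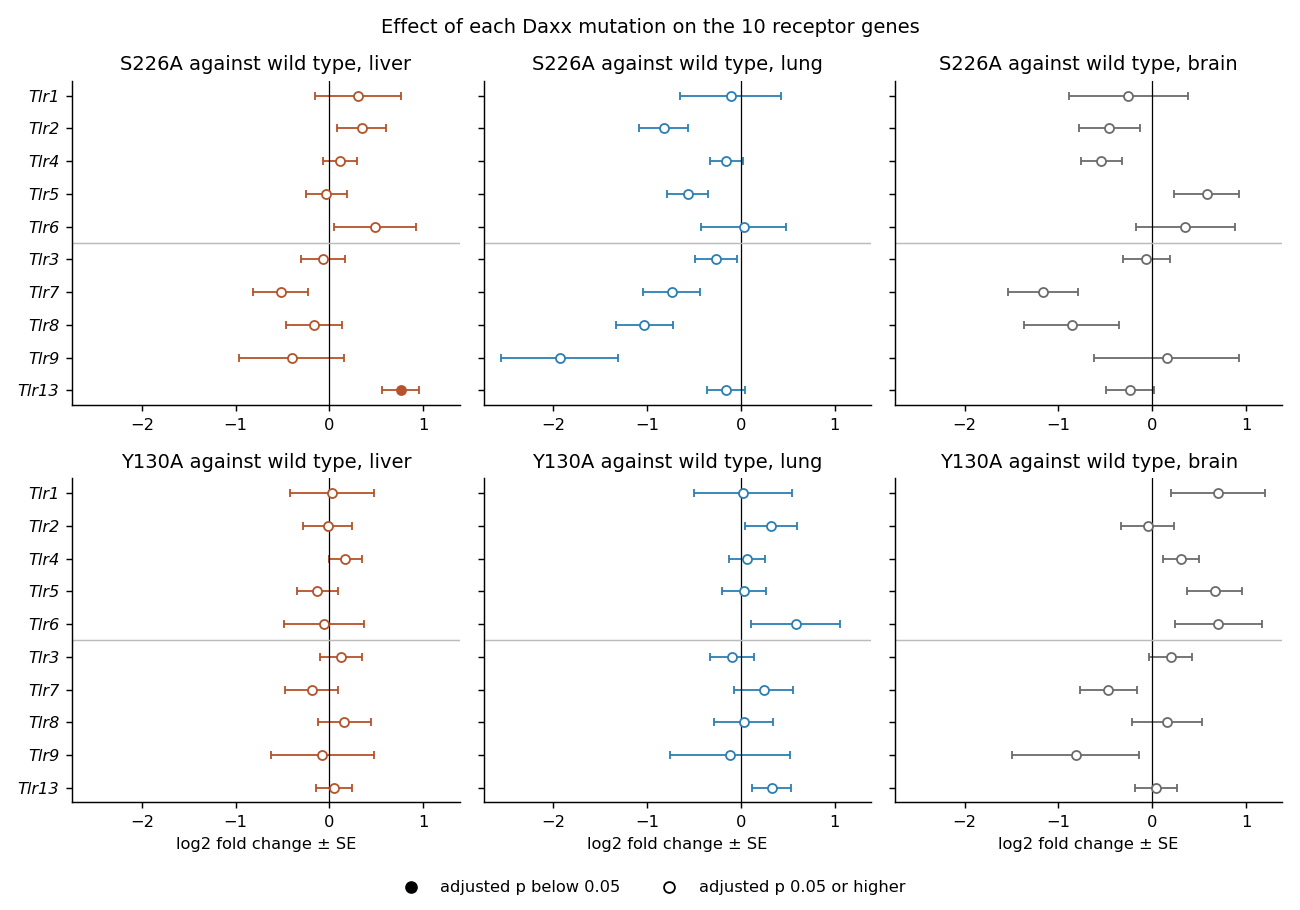
Log2 fold change ± SE of each receptor in S226A (top) and Y130A (bottom) against WT littermates in liver, lung and brain, filled where the adjusted p is below 0.05. Tlr13 in S226A liver (0.76) is the 1 filled point, and in S226A lung 9 of 10 points lie below 0.

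In S226A lung no receptor passed the test with edgeR (0 of 10, where 1.88% of all genes did), but the values lay mostly below WT. The log2 fold changes of 9 of 10 receptors were below 0 and their median was -0.41, against 0.003 over all genes tested. At an unadjusted p below 0.05 there were 5 (Tlr2, Tlr5, Tlr7, Tlr8 and Tlr9), where 16.2% of all genes were. Summed over the 10 receptors the mutants had 1352 to 1832 normalized counts and WT 1922 to 2263. The count depends on the tool, since DESeq2 called 3 of the 10 lower, Tlr8 (adjusted p = 0.0121), Tlr9 (0.0294) and Tlr2 (0.0411), where it called 3.81% of all genes.

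Tlr8 was the 1 receptor whose lung groups did not overlap, where 3.81% of all genes did not. It was at 81.6, 97.8, 77.1 and 35.4 normalized counts in S226A and at 173, 128, 152 and 141 in WT, a log2 fold change of -1.03 ± 0.30 (adjusted p = 0.0636, edgeR). Tlr9 was at 2.44, 9.64, 17.9 and 12.2 in the mutants, counted by 2 to 13 reads, and at 15.2, 65.1, 37 and 43.7 in WT, a log2 fold change of -1.93 ± 0.62 (adjusted p = 0.0984). The WT lungs of the Y130A litters, with 9.03 to 13.9, lay within the range of the S226A lungs. With litter as a replicate block Tlr9 was called (-1.97, adjusted p = 0.0474). Tlr7 was at 75.6, 27.5, 57.8 and 59.8 against 69.3, 122, 88.8 and 89, a log2 fold change of -0.74 ± 0.31 (adjusted p = 0.209). Of the other endosomal receptors, Tlr3 (-0.26 ± 0.22) and Tlr13 (-0.16 ± 0.20) overlapped WT.

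At the cell surface, Tlr2 was at 334, 193, 165 and 172 normalized counts in S226A lung and at 510, 333, 315 and 367 in WT, a log2 fold change of -0.82 ± 0.26 (adjusted p = 0.0925). Replicate 1 of the mutants stood apart from the other 3 and alone reached the WT range, and its WT littermate, at 510, was the highest WT. In all 4 litters the S226A lung was below its WT littermate for Tlr2, Tlr4, Tlr5, Tlr8 and Tlr9. The share of all genes with 1 direction in all 4 litters was not computed, so this count cannot be set against it. Without S226A replicate 1 Tlr2 was called (-1.11, adjusted p = 0.0259). Tlr5 was at 263, 202, 279 and 187 against 281, 246, 423 and 431 (-0.57 ± 0.22, adjusted p = 0.17), with the mutants still above every Y130A-litter WT lung. Without WT replicate 2, Tlr2 (adjusted p = 0.0431), Tlr5 (0.0473) and Tlr8 (0.0278) were called, and without WT replicate 1, Tlr9 (0.0362). Tlr4 (-0.15 ± 0.18), Tlr1 (-0.10 ± 0.54) and Tlr6 (0.03 ± 0.45) did not pass the test. Tlr1 had 0 to 24 reads per library, and the values of Tlr1 and Tlr6 changed sign when single libraries were left out.

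**Figure D4:**
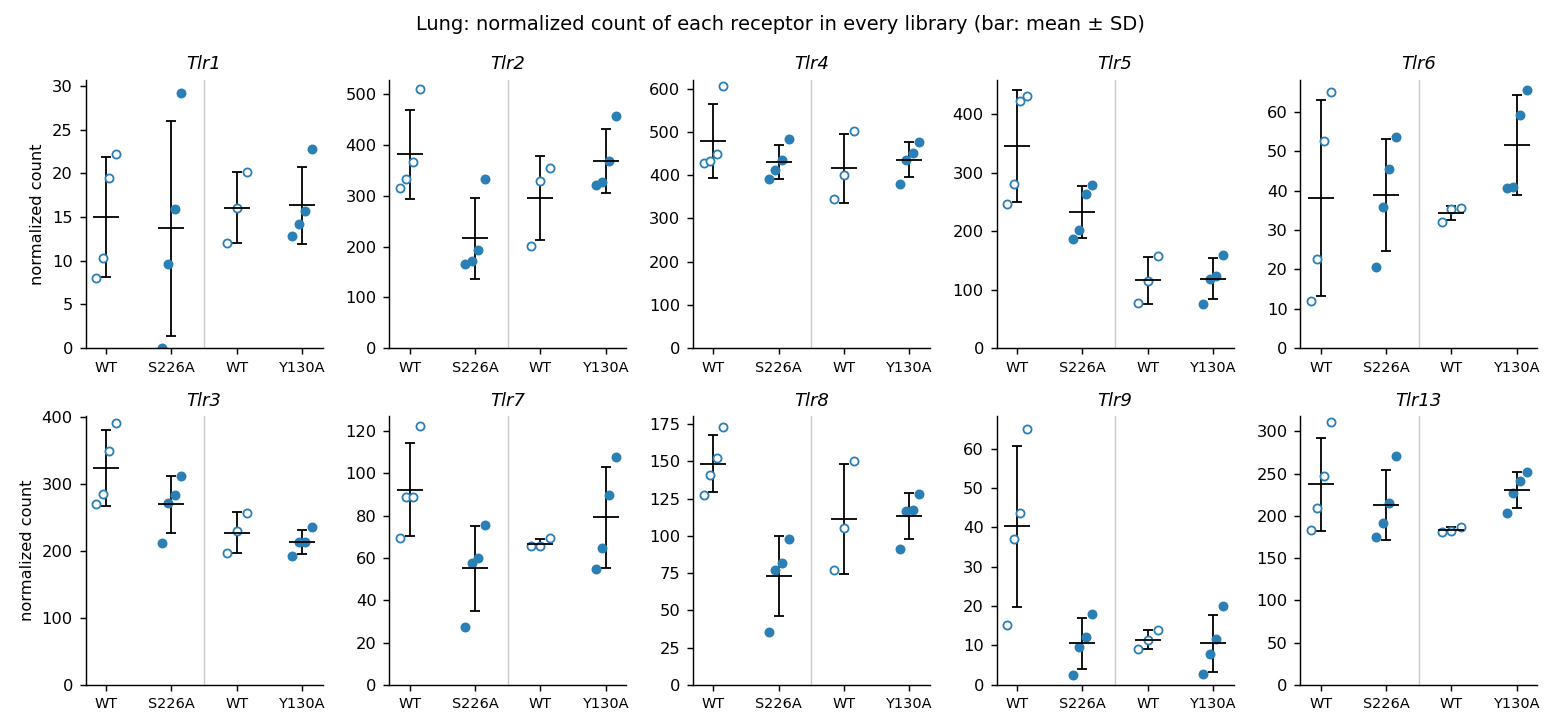
Normalized count of each receptor in every lung library, with mean ± SD as bars, open points for WT and filled points for mutants, S226A litters to the left of the line and Y130A litters to the right. Tlr8 is lower in all 4 S226A lungs (35.4 to 97.8) than in their WT littermates (128 to 173), and Tlr5 is higher in the WT lungs of the S226A litters (246 to 431) than in those of the Y130A litters (76.4 to 157).

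Immune cell markers differed in S226A lung as well. Of 10 neutrophil markers 5 rose (summed 3948 to 5487 normalized counts against 1005 to 2318), or 3 when only these lungs were fitted and also without WT replicate 3, WT replicate 4 or S226A replicate 2. Of 10 macrophage markers Marco and Cd5l rose and Csf1r and Adgre1 fell (summed 2029 to 2655 against 3055 to 3825). Csf1r, the receptor that macrophages and monocytes need for survival, fell by 1.13 on the log2 scale. Of 4 monocyte markers Ccr2 fell, and of 4 endothelial markers 0 were called (0 also with DESeq2, and 1 at an unadjusted p below 0.05). With only these lungs fitted, Csf1r kept its call, and Marco (adjusted p = 0.365), Cd5l (0.712), Adgre1 (0.538) and Ccr2 (0.136) lost theirs. Marco and Cd5l also both lost their calls without WT replicate 4 or S226A replicate 1, and Adgre1 lost its call without any 1 of WT replicates 1, 3 and 4 and S226A replicates 2, 3 and 4. Siglech, a plasmacytoid dendritic cell and microglial marker, had no read in the 4 S226A lungs and 0 to 21 in WT. It was the 1 of 4 plasmacytoid dendritic cell markers that was called, but not without S226A replicate 2 or 4 (adjusted p up to 0.0637). Of 7 microglial markers, Fcrls (-1.76 ± 0.34) and Cx3cr1 (-1.25 ± 0.19) fell besides. The part of these markers' cells in the values of the receptors was not tested.

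In S226A brain no receptor passed the test (0 of 10, where 0.243% of all genes did, and 0 with DESeq2), and 2 had an unadjusted p below 0.05, where 2.27% of all genes had. The groups of these 2 did not overlap, where 2.49% of all genes did not. Tlr7 was at 14.5, 8.07, 11.1 and 9.76 normalized counts, from 7 to 14 reads, against 38.5, 20.9, 21.8 and 17.5, a log2 fold change of -1.16 ± 0.37 (adjusted p = 0.62). Tlr4 was at 41.4, 46.1, 28.4 and 33 against 50.9, 61.5, 57.2 and 48.1 (-0.54 ± 0.22, adjusted p = 1). All 4 mutants were below all 4 WT for both genes. The other 8 lay between -0.86 (Tlr8) and 0.58 (Tlr5), and Tlr5 was counted by 5 to 17 reads. Of 7 microglial markers 5 fell in these brains, among them Cx3cr1 (-2.21 ± 0.20), or 3 without S226A replicate 4. Of 10 macrophage markers Csf1r, C1qa, C1qb and C1qc fell and Marco rose, and C1qa and C1qc lost their calls without WT replicate 3 or S226A replicate 1 or 4. C1qc also lost its call without any 1 of WT replicates 2 and 4 and S226A replicates 2 and 3 (adjusted p up to 0.121). Of 10 neutrophil markers S100a8 and S100a9 rose, but 0 were called without WT replicate 3 or S226A replicate 2, and 1 without WT replicate 1, 2 or 4 or S226A replicate 3. The part of these in the values of Tlr7 and Tlr4 was not tested.

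In Y130A embryos no receptor passed the test in any tissue, with edgeR or DESeq2. Of all genes, 0.272% were called in Y130A liver, 0.0178% in lung and 0.00592% in brain. At an unadjusted p below 0.05 there were 0 receptors in liver, 0 in lung and 1 in brain, where 9.22%, 2.92% and 2.22% of all genes were. Tlr13 in Y130A liver was at 361, 432, 426 and 417 normalized counts against 428, 359, 402 and 388, a log2 fold change of 0.05 ± 0.19, with a 95% interval from -0.32 to 0.43. The other receptors in Y130A liver lay between -0.19 (Tlr7) and 0.17 (Tlr4), and the groups overlapped for all 10, where 2.35% of all genes did not. In Y130A lung Tlr13 was at 203, 252, 227 and 241 against 181, 182 and 187 (0.33 ± 0.21), and Tlr6 was at 40.9, 40.7, 65.5 and 59.2 against 35.3, 35.5 and 32.1 (0.59 ± 0.47). Neither pair of groups overlapped, as for 4.16% of all genes, yet both had an adjusted p of 1.

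In Y130A brain Tlr5 was at 14, 11.6, 10.6 and 12 normalized counts against 6.55, 7.62, 8.43 and 7.52, all mutants above all WT, from 12 to 24 reads per library. Its log2 fold change was 0.67 ± 0.29 (adjusted p = 1). Tlr7 was at 26.7, 22.7, 26.4 and 16.2 against 26.8, 29.4, 32.7 and 38.7 (-0.47 ± 0.31), with the highest mutant just under the lowest WT. These were 2 of 10 receptors without overlap, where 4.75% of all genes had none. The other receptors overlapped and lay between -0.82 (Tlr9, from 2 to 12 reads per library) and 0.70 (Tlr6). No marker of macrophages, neutrophils, monocytes or microglia was called in a Y130A tissue.

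The difference between the effects of S226A and Y130A was tested as an interaction. No receptor was called in liver, lung or brain (0 of 10 in each, also with DESeq2), where 5.90%, 0.308% and 0.0829% of all genes were. At an unadjusted p below 0.05 there were 1 in liver (Tlr13), 3 in lung (Tlr2, Tlr7 and Tlr8) and 1 in brain (Tlr4), where 18.4%, 9.8% and 2.29% of all genes were. For Tlr13 in liver the effect of S226A exceeded that of Y130A by 0.71 ± 0.27 (log2, 95% interval 0.17 to 1.24, adjusted p = 0.127), a difference that was called when only the livers were fitted (adjusted p = 0.0291). In lung the largest differences were those of Tlr9 (-1.81 ± 0.90), Tlr2 (-1.14 ± 0.38, adjusted p = 0.244) and Tlr8 (-1.06 ± 0.43). The litter sets differ in depth, and in lung also in the WT levels of Tlr5 and Tlr9.

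The effect of S226A was also compared between tissues of the same litters. From liver to lung it shifted down for Tlr13 by 0.92 ± 0.28 (log2 difference -0.92, adjusted p = 0.0361) and for Tlr2 by 1.16 ± 0.37 (-1.16, adjusted p = 0.0472), 2 of 10 receptors, where 6.90% of all genes were called. Tlr13 was above WT in liver (0.76) and slightly below in lung (-0.16), Tlr2 at 0.34 in liver and -0.82 in lung. Both calls were close to the threshold. Tlr13 was lost with litter as a replicate block (adjusted p = 0.0580), and Tlr2 without the squamous libraries (0.103). Leaving out 1 library at a time, Tlr13 was lost without liver WT replicate 3 or 4, liver S226A replicate 2, lung WT replicate 2, or lung S226A replicate 2, 3 or 4 (adjusted p up to 0.0879). Tlr2 was lost without liver WT replicate 2 or 3, liver S226A replicate 1, 2 or 3, lung WT replicate 1 or 4, or lung S226A replicate 2, 3 or 4 (adjusted p up to 0.104). Between liver and brain the difference for Tlr13 had a 95% interval from -1.63 to -0.37, lower in brain (adjusted p = 0.0774), and DESeq2 called it (0.0365), as did the fit without brain WT replicate 3 (0.0183). There 0 of 10 receptors were called, where 3.71% of all genes were, and 2 had an unadjusted p below 0.05, where 15.2% of all genes had. Between lung and brain no receptor was called (0 also with DESeq2, and 2 at an unadjusted p below 0.05), where 0.124% of all genes were called and 7.13% had an unadjusted p below 0.05.

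Other genes of the pathway were taken from lists by step. Tlr11 and Tlr12, the mouse receptors for profilin of protozoa, stood outside the 10 receptors. Tlr12 fell in S226A liver, from 142, 223, 225 and 208 normalized counts in WT to 19.5, 57.3, 53 and 76.5, a log2 fold change of -1.95 ± 0.29 (adjusted p = 4.57e-06). The mean was 51.6 in the mutants and 199.6 in WT, with no overlap. Within 1 gene family the same livers therefore had Tlr13 higher and Tlr12 lower. In Y130A liver Tlr12 was at 133, 190, 213 and 140 against 202, 122, 225 and 129 (-0.01 ± 0.26). Tlr11 was at or under 9 reads in every liver of the S226A litters, with a mean of 1.71 normalized counts in the mutants and 11.2 in WT and overlapping groups, and was not called (adjusted p = 0.202, edgeR). Tlr11 and Tlr12 both had an unadjusted p below 0.05 in S226A liver (0.0499 for Tlr11, edgeR).

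Of 6 coreceptors and accessory proteins, 1 rose and 1 fell in S226A liver, where 11.7% of all genes were called. Ly86, the partner of Cd180 in a receptor complex of B cells and macrophages, fell from 401 to 496 normalized counts in WT to 210 to 261 (log2 fold change -0.90 ± 0.20, adjusted p = 0.00137). It also fell in S226A brain, from 75 to 110 to 12.4 to 39.2 (-2.09 ± 0.24, adjusted p = 4.04e-07). Lbp, the lipopolysaccharide-binding protein that hepatocytes secrete, rose in liver by 0.43 ± 0.12 (adjusted p = 0.0145, and 0.0677 without S226A replicate 1). In S226A brain 5 of the 6 had an unadjusted p below 0.05, where 2.27% of all genes had. Besides Ly86 these were Cd14 (-2.31 ± 0.55) and Cd180 (-1.18 ± 0.49), below WT, and Cd36 (0.61 ± 0.23) and Lbp (0.37 ± 0.18), above WT, none of them called. No gene of the list was called in S226A lung (0 with DESeq2 and 0 at an unadjusted p below 0.05).

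Of 10 chaperones, carriers and proteases that fold, move and trim the receptors, 3 fell and 1 rose in S226A liver, 2 fell in lung and 2 fell in brain, where 11.7%, 1.88% and 0.243% of all genes were called. Ctss, a cathepsin that cuts the ectodomains of endosomal receptors, fell in all 3 tissues, by 1.04 ± 0.17 in liver, 1.13 ± 0.17 in lung and 1.48 ± 0.20 in brain on the log2 scale, with no overlap of groups in any. Lgmn, an endosomal peptidase with the same kind of substrate, fell in liver by 0.93 ± 0.09. Unc93b1, the carrier of the endosomal receptors, fell in brain from 160, 132, 167 and 150 normalized counts in WT to 102, 111, 98.9 and 89.1 (-0.60 ± 0.11, adjusted p = 0.00243). In lung it fell by 0.36 ± 0.10 (adjusted p = 0.0353), a call that was lost without WT replicate 4 (0.0593) or without S226A replicate 2 (0.104), 3 (0.0761) or 4 (0.0932). In liver it did not pass the test (-0.24 ± 0.09, adjusted p = 0.0872). Ctsb (-0.24) and Cnpy3 (0.35) were called in liver, but not without S226A replicate 3 (0.0634) and WT replicate 1 (0.0779), respectively. With each tissue's S226A litters fitted alone, Ctsb (0.0666) and Cnpy3 (0.0535) in liver, Ctss in lung (0.0635) and Unc93b1 in lung (0.591) and brain (0.196) missed the threshold.

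Of 6 adaptors, 1 was called, Pik3ap1 in S226A lung, where 1.88% of all genes were. It links the receptors to phosphoinositide 3-kinase. It fell from 493, 491, 570 and 555 normalized counts in WT to 229, 167, 175 and 201 (log2 fold change -1.45 ± 0.13, adjusted p = 1.32e-09). In S226A liver its log2 fold change was 0.001 ± 0.12. Myd88, the adaptor shared by most members, was not called in any tissue, between -0.19 and 0.04 in S226A.

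Among kinases and ligases, transcription factors, inhibitors and target genes, edgeR called 11 of 46 in S226A liver, 0 in lung and 0 in brain, where 11.7%, 1.88% and 0.243% of all genes were called. For lung and brain, the unadjusted p was below 0.05 for 11 and 5 of these genes, against 16.2% and 2.27% of all genes. There DESeq2 called 1 and 2 of the 46, where it called 3.81% and 0.391% of all genes. Of 16 kinases and ligases 5 rose and 1 fell in liver, with Irak4 (0.66 ± 0.17), Ikbke (0.64 ± 0.12) and Traf3 (0.64 ± 0.10) the largest and Ikbkb (0.24 ± 0.08) and Irak1 (0.21 ± 0.07) smaller. Ikbkb lost its call in 8 of 14 alternatives (adjusted p up to 0.112), Irak1 in 7 (0.131) and Chuk, which fell (-0.21), in 4 (0.149). With RLE size factors 3 rose. Irak4 was lost without S226A replicate 3 (adjusted p = 0.0599). Of 9 transcription factors Nfkb1 rose, by 0.39 ± 0.06. Of 10 inhibitors 4 rose. Irak3, a kinase relative that blocks signalling from the Irak complex in monocytes and macrophages, rose from 292, 249, 246 and 225 normalized counts in WT to 586, 560, 534 and 512 (1.11 ± 0.20, adjusted p = 6.31e-05). Tnip1 (0.77 ± 0.11), Nfkbia (0.61 ± 0.13) and Tnfaip3 (0.44 ± 0.14), which restrain NF-kB, were the others, and Tnfaip3 lost its call in 9 of 14 alternatives (adjusted p up to 0.133). Of 14 target genes with counts 11 could be tested and none was called in any tissue with edgeR. Their log2 fold changes ran from -4.18 to 1.93 in S226A liver, from -3.80 to 4.38 in lung and from -3.75 to 1.81 in brain. In each of these tissues 2 had an unadjusted p below 0.05. DESeq2 called 1, 0 and 1, where it called 15.2%, 3.81% and 0.391% of all genes. In Y130A no gene of the 70 tested over all these lists was called in any tissue, also with DESeq2, and 4, 1 and 1 had an unadjusted p below 0.05 in liver, lung and brain.

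**Figure D5:**
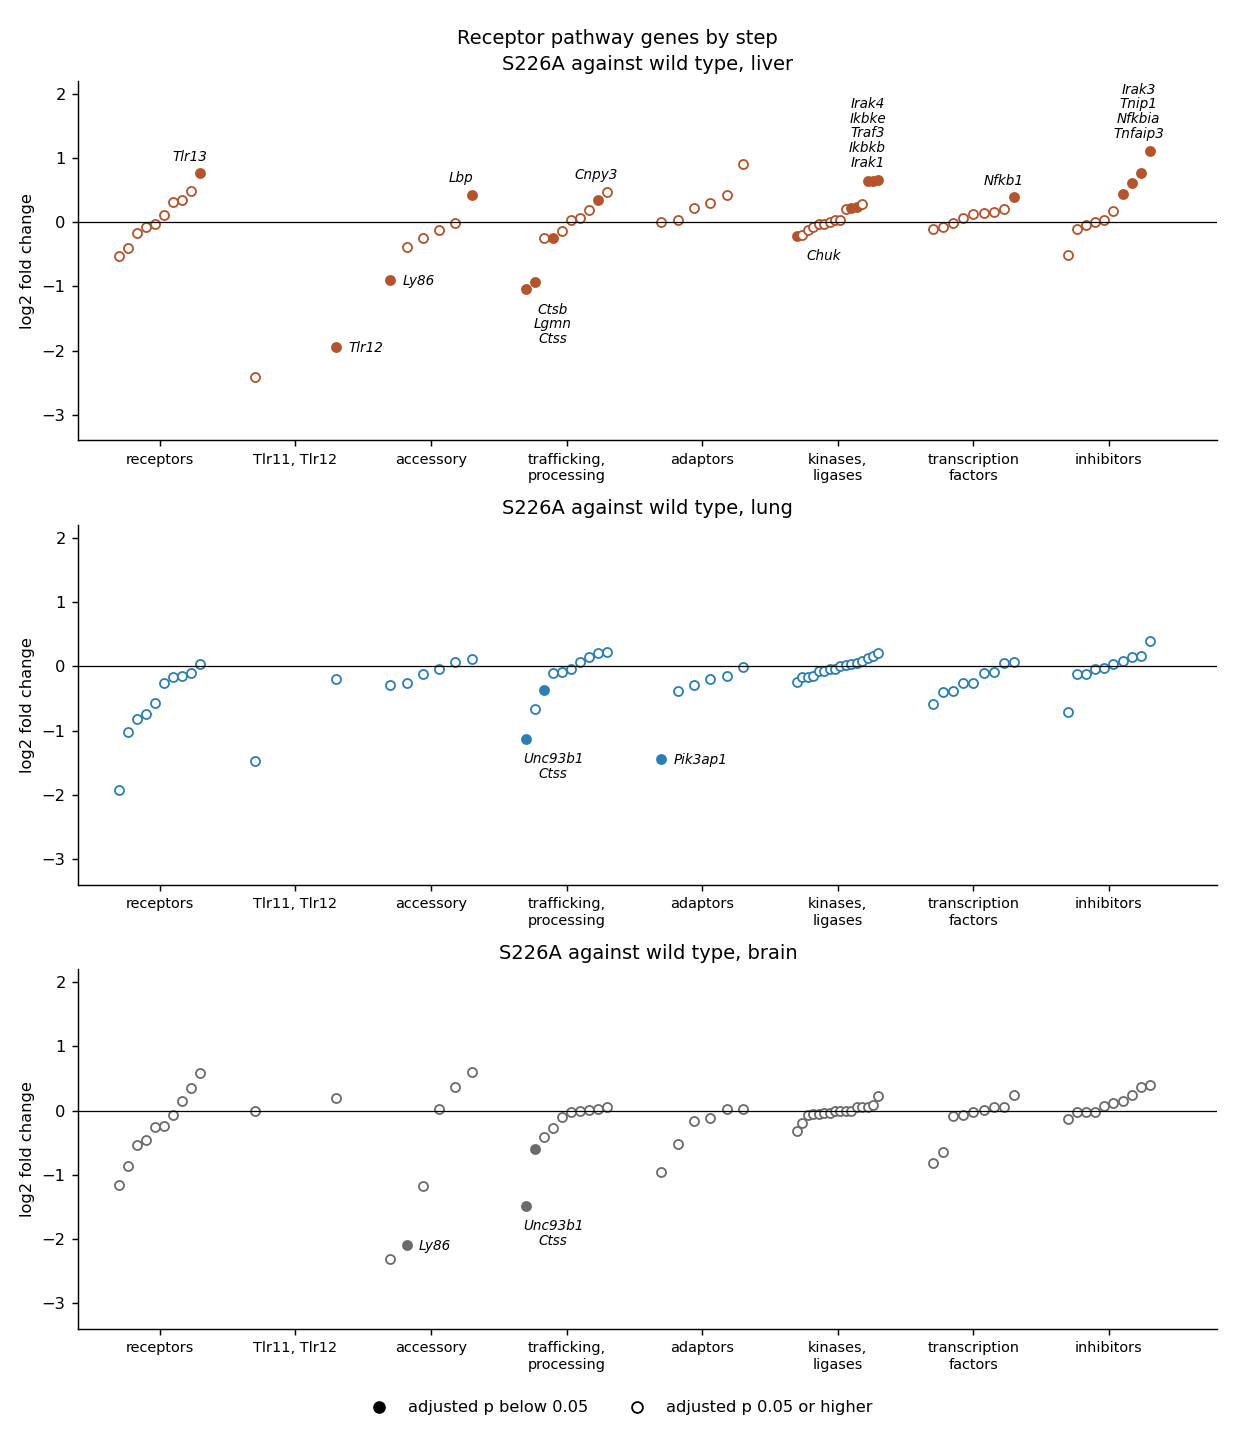
Log2 fold change in S226A against WT littermates for the receptors and pathway genes, by step and tissue, filled and named (the names beside or stacked near the points, from the highest value down) where the adjusted p is below 0.05. The target genes are not plotted. In liver the called genes of kinases, factors and inhibitors lie above 0 except Chuk, and Tlr12 (-1.95) and the proteases Ctss (-1.04) and Lgmn (-0.93) lie below.

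Across all 47 libraries of 3 tissues the receptors varied together. The Pearson correlation of log2(CPM + 1) between pairs of receptors had a median of 0.78 over the 45 pairs, highest for Tlr2 with Tlr4 and Tlr8 with Tlr13 (both 0.95) and lowest for Tlr1 with Tlr3 (0.18). Within the 16 livers the median was 0.02, within the 15 lungs 0.17 and within the 16 brains 0.04. The pair most alike within a tissue was Tlr3 and Tlr5 in lung (0.85), where the litter sets differ in the level of Tlr5 and their WT lungs did not overlap for Tlr3.

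The genes most like Tlr13 over all 47 libraries were Itgb2, the common beta chain of leukocyte integrins, Sp140, a leukocyte nuclear body protein, and Ncf1, a subunit of the phagocyte NADPH oxidase, each with r of 0.99. Over the 16 livers they were Gstm1 (0.94), Fpr2, a receptor for formyl peptides on neutrophils and monocytes (0.93), and Dock11 (0.92). For Tlr7 over all libraries they were Ifi204, the macrophage marker Adgre1 and Epsti1 (0.95 each). For Tlr2 they were Ccl6 (0.98), Ear2 and Cytip (0.97 each). For Tlr4 they were Fas, Ppp2r5a and Cast (0.99 each). Libraries of 1 tissue, 1 embryo or 1 litter set are not independent points, so these values describe the libraries only.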

How the data were processed

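RNA was isolated from flash-frozen liver, lung and brain of embryos at E18.5. The authors trimmed reads with Trim Galore 0.6.5, checked them with FastQC 0.11.5, aligned them to GRCm38 with GENCODE M19 using STAR 2.6.0b, and deposited whole-number counts per gene, not normalized, for 47 libraries (20456 genes, of which 20424 identifiers matched a gene name). The deposited counts were used as given. They were normalized by TMM, filtered (minimum count 10, minimum total 15), and 16892 genes were fitted with edgeR 4.0.16 (R 4.3.3), with 1 coefficient for each of 12 groups and p-values adjusted by Benjamini-Hochberg over all genes tested. Standard errors are the log2 fold change over the square root of F. Normalized counts are scaled to the geometric mean effective library, and RPKM use exon lengths of GENCODE M21. The study's stringent criteria are an adjusted p below 0.01, a log2 change beyond 1 and an SE below 1.

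Totals were 15722147 to 26190403 counts in the S226A litters (9 embryos) and 36351738 to 54885020 in the Y130A litters (8 embryos), so that low receptor counts, above all in brain, limit precision. Tissues of the same embryo are not independent of each other. Mutant and WT embryos were litter-matched by the labels. Deviations of same-litter pairs correlated above 0.1 in 18 of 23 pairs, against 5 of 69 other pairs, and litter was a replicate block in an alternative. No 2 libraries were alike within sampling noise. DESeq2 1.42.0, RLE size factors, no filter, thinning of the Y130A litters, only the libraries compared, and leaving out each library were further alternatives. The scripts were tested on simulated data. 1 WT lung that the authors left out was not analysed here, and 1 list of cell type markers is not reported here.

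The receptors, gene lists, motifs and tests were chosen with earlier results of these data known. In each pathway list and comparison the called genes are named, at most the 5 with the largest change, and marker lists are given by counts with examples. Uncalled receptors are described because they are members, and Myd88, Tlr11, the uncalled coreceptors in brain, Chuk (a called kinase beyond those 5) and the promoter of Tlr13 were picked after values were seen.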

Additional observations from a re-analysis of the deposited data

Results flagged for a closer look

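Of 110 combinations of a receptor and a group of 4 libraries, 7 had 1 library far from the other 3 by Dixon's criterion, which chance gives in about 1 of 20. Among the livers, Tlr4 was at 201.8 normalized counts in WT replicate 3 of the S226A litters, against 452.8 to 481.0 in the others of the group. In the same library Tlr9 was at 140.2, against 85.46 to 90.57. Tlr3 was at 188.4 in Y130A replicate 1, a library with squamous RNA, against 91.47 to 106.8, and Tlr1 was at 136.1 in Y130A replicate 3, against 96.29 to 102.9. Among the lungs, Tlr2 was at 333.9 in S226A replicate 1, against 165.1 to 192.8, and Tlr4 was at 606.9 in WT replicate 1 of the S226A litters, against 427.7 to 448.5. In brain, Tlr5 was at 5.472 in WT replicate 4 of the S226A litters, from 5 reads, against 9.838 to 10.4.

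The effect of S226A differed between lung and liver for Tlr2 (log2 difference -1.162, adjusted p = 0.0472) and for Tlr13 (-0.9187, adjusted p = 0.0361), by the interaction in edgeR's fit, where 6.90% of all genes were called. The call of Tlr2 was lost in 12 of 21 alternatives and that of Tlr13 in 8 of 21. What sets these 2 genes or the distant libraries apart was not tested.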

How the results depend on the processing

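Of 318 recomputed counts of called receptors 285 stayed within 1.5 times the reported count, and 33 moved. For the 41 combinations of receptor and comparison with a call in at least 1 setting, of 826 recomputed values 767 kept their direction and side of the threshold, 44 lost a call, 14 gained one, and 1 turned, Tlr5 in WT lung against liver, at 0.003074 in the S226A litters alone. The 139 combinations without a call in any setting gave 2283 values, of which 147 changed sign, in 55 combinations, none with a call. Of 1124 values of pathway and marker genes 118 lost a call and 0 turned. In S226A liver the count fell to 0 under the stringent criteria, which ask for a larger change and which 2.1% of all genes met. The shares of all genes called in the same setting follow in parentheses. In S226A lung it was 3 with DESeq2 (3.81%) and 1 with litter as a replicate block (3.62%). For S226A against Y130A in liver it was 1 (Tlr13) when only the livers were fitted (3.48%), and for WT lung against liver 5 in the S226A litters alone (73.7%). For the S226A effect in lung against liver it was 1 without a filter (5.03%), 1 with the replicate block (9.29%) and 1 without the squamous livers (6.73%). For brain against liver it was 1 with DESeq2 (6.12%). Between WT lungs of both litter sets it was 1 without a filter (15.6%) and 1 with the Y130A litters thinned (20.1%). With 1 library omitted at a time, receptors called numbered 0 to 3 in S226A lung, 0 to 2 for lung against liver and 0 to 1 for brain against liver in the S226A effect, 7 to 8 in WT lung against liver, and 1 to 2 between the WT lungs. In the other comparisons it left the count of receptors as reported. The replicate block changed no other count by more than 1.5 times. The fits without squamous livers, between tissues within a genotype and between litter sets were chosen after seeing the data. Where a cause is not named, the cause was not tested. Under about 20 reads, as by the medians in WT brain for Tlr1, Tlr5, Tlr6, Tlr8 and Tlr9, only large changes could be detected.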
